A study of Mus musculus with 6 samples.

Results

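*Sox21*, *Sox3* and *Pou4f2* encode transcription factors of the developing nervous system, and their transcripts were followed on 6 microarrays of mouse embryonic stem cells (mESCs). The 3 genes are 3 of the 734 genes whose probe could be named, and their probes are 3 of 23949 in the processed table. They were chosen from the study's own list of genes that differed between the lines on these same arrays, by a fold change of at least 1.5 and a paired test. The differences given for them are therefore a description and carry no p-value. The study also reports RT-qPCR of selected genes from this comparison. Its primer list holds pairs for *Sox21* and *Pou4f2*, but RT-qPCR values were not among the data read here. *Sox21* is probe ASMM9PARTA042929, *Sox3* probe ASMM9PARTA028810 and *Pou4f2* probe ASMM9PARTA038738, each with 1 spot on every array.

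Both lines derive from 2TS22C mESCs, which lack endogenous *Sox2* and live on an untagged SOX2 transgene that doxycycline represses. fSOX2-Tg cells (3 replicates) express FLAG-tagged wild-type SOX2. fS248A-Tg cells (3 replicates) express the same tagged protein with the S248A change, in both cases from a CAG promoter. Both lines were grown with 1 µg/ml doxycycline and leukemia inhibitory factor, with no further treatment, so that the tagged protein was the only SOX2. On part of the wild-type protein, the serine that S248A replaces carries an *O*-GlcNAc sugar, which alanine cannot carry. The study also reports more phosphorylation of a nearby serine in fS248A-Tg cells. Each transgene is represented by 1 stable line, grown from puromycin-resistant colonies, so an effect of the mutation and a difference between the lines cannot be told apart. The forward mutagenesis oligonucleotide that made the change is shown because it defines the comparison, with the codon for alanine in capitals, as the study's primer list gives it.

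Sox2S248Af: ggtcGCCtccgaggccagctcca

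SOX proteins bind DNA through a high mobility group box and POU proteins through a paired POU-specific domain and homeodomain. SOX3 belongs with SOX2 to the SOXB1 activators, which keep neural progenitors undifferentiated and can stand in for each other in many settings, and it is encoded on the X chromosome. SOX21 is a SOXB2 factor that opposes SOXB1 proteins at shared targets and promotes neuronal differentiation. POU4F2, also called BRN3B, is required for the differentiation and survival of retinal ganglion cells. In mESCs, SOX2 works with the POU factor OCT4 to maintain pluripotency.

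The sequence upstream of the transcription start was available for *Sox21* and *Pou4f2* in the RefSeq promoter table of GRCm38.p6, and is shown as context for the differences reported for these genes. Both stretches are the 250 bases before the start, 5′ to 3′ on the minus strand, with every CG dinucleotide in capitals. The *Sox21* stretch lies at chr14:118237031-118237280 and the *Pou4f2* stretch at chr8:78436648-78436897.

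Sox21: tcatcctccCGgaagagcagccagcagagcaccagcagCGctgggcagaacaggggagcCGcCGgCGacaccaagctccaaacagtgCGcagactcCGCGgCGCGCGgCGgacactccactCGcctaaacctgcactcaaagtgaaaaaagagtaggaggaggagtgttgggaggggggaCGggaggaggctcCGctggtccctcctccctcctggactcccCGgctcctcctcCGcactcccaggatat

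Pou4f2: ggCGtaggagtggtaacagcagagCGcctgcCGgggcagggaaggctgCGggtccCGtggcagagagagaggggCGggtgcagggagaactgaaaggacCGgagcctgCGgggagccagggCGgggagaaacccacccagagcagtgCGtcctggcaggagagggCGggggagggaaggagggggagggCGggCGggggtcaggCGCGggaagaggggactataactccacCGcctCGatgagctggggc

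The *Sox21* stretch is 65.2% G or C and that of *Pou4f2* 70.8%, and each holds 17 CG dinucleotides. Over the 32851 stretches of equal length in the table the medians are 52.4% and 6, and 21.7% of them hold more than 17. Neither stretch holds the SOX core sequences ACAAAG or ACAATG or the octamer ATGCAAAT on either strand. These words are held by 16.5%, 10.7% and 1.60% of all the stretches. The absence says only that these letters are not in the windows shown.

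On all 6 arrays the 3 probes were well above background by the scanner software, and no spot was saturated. A level is the log2 of the intensity minus the log2 of that array's 75th percentile, which was between 184 and 457 intensity units. Between 66.0% and 83.1% of the spots of an array were well above background. The array carries 20 negative control sequences, and the brightest of them was between -2.43 and -0.96 on this scale. *Pou4f2* lay between 1.15 and 2.70 log2 units above the brightest negative control of the same array, *Sox3* between 2.28 and 3.44 and *Sox21* between 4.77 and 7.66. The array of fSOX2-Tg replicate 2 stood nearer to the other line than to its own, with log2 differences whose standard deviation averaged 0.602 against the 3 arrays of fS248A-Tg and 0.759 against its own line. fS248A-Tg replicate 2 also lay nearer to the other line, with 0.610 against 0.686. For this reason each difference is also given without fSOX2-Tg replicate 2.

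*Sox21* was higher in the cells with S248A SOX2. Its level was 4.04 in fSOX2-Tg replicate 1, 3.81 in replicate 2 and 4.41 in replicate 3, and the fS248A-Tg arrays of these numbers gave 5.22, 4.98 and 5.24. The lowest fS248A-Tg array thus lay 0.57 above the highest fSOX2-Tg array. The means were 4.09 ± 0.30 (SD, n = 3) and 5.15 ± 0.14 (SD, n = 3), a log2 difference of 1.06 with a standard error of 0.32 in limma, or 2.08-fold. Within pairs of equal replicate number the difference was 1.18, 1.17 and 0.83. Without fSOX2-Tg replicate 2, which had the lowest level of the 6, it was 0.92.

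*Sox3* was lower in fS248A-Tg mESCs. Its level was 1.93 in fSOX2-Tg replicate 1, 1.94 in replicate 2 and 1.53 in replicate 3, against 1.10, 1.13 and 1.02 on the fS248A-Tg arrays of these numbers. On this scale the 3 fS248A-Tg arrays lay within a narrow range, and fSOX2-Tg replicate 3 was the fSOX2-Tg array nearest to them, 0.40 above the highest. The means were 1.80 ± 0.23 (SD, n = 3) and 1.08 ± 0.056 (SD, n = 3), a log2 difference of -0.72 with a standard error of 0.32, so the fSOX2-Tg level was 1.64 times that of fS248A-Tg cells. The pair differences were -0.83, -0.81 and -0.51. Without fSOX2-Tg replicate 2 the difference was -0.65.

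*Pou4f2* was also lower in fS248A-Tg mESCs. It was 0.76 in fSOX2-Tg replicate 1, 1.14 in replicate 2 and 1.10 in replicate 3, against -0.12, 0.45 and 0.27 on the fS248A-Tg arrays of these numbers. Replicate 1 was the lowest array of each line, and the lines were separated by 0.32. The means were 1.00 ± 0.21 (SD, n = 3) and 0.20 ± 0.29 (SD, n = 3), a log2 difference of -0.80 with a standard error of 0.32, so the fSOX2-Tg level was 1.74 times that of fS248A-Tg cells. The pair differences of -0.88, -0.69 and -0.83 had a standard deviation of 0.098, below that of either line. Without fSOX2-Tg replicate 2 the difference was -0.73.

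**Figure D1:**
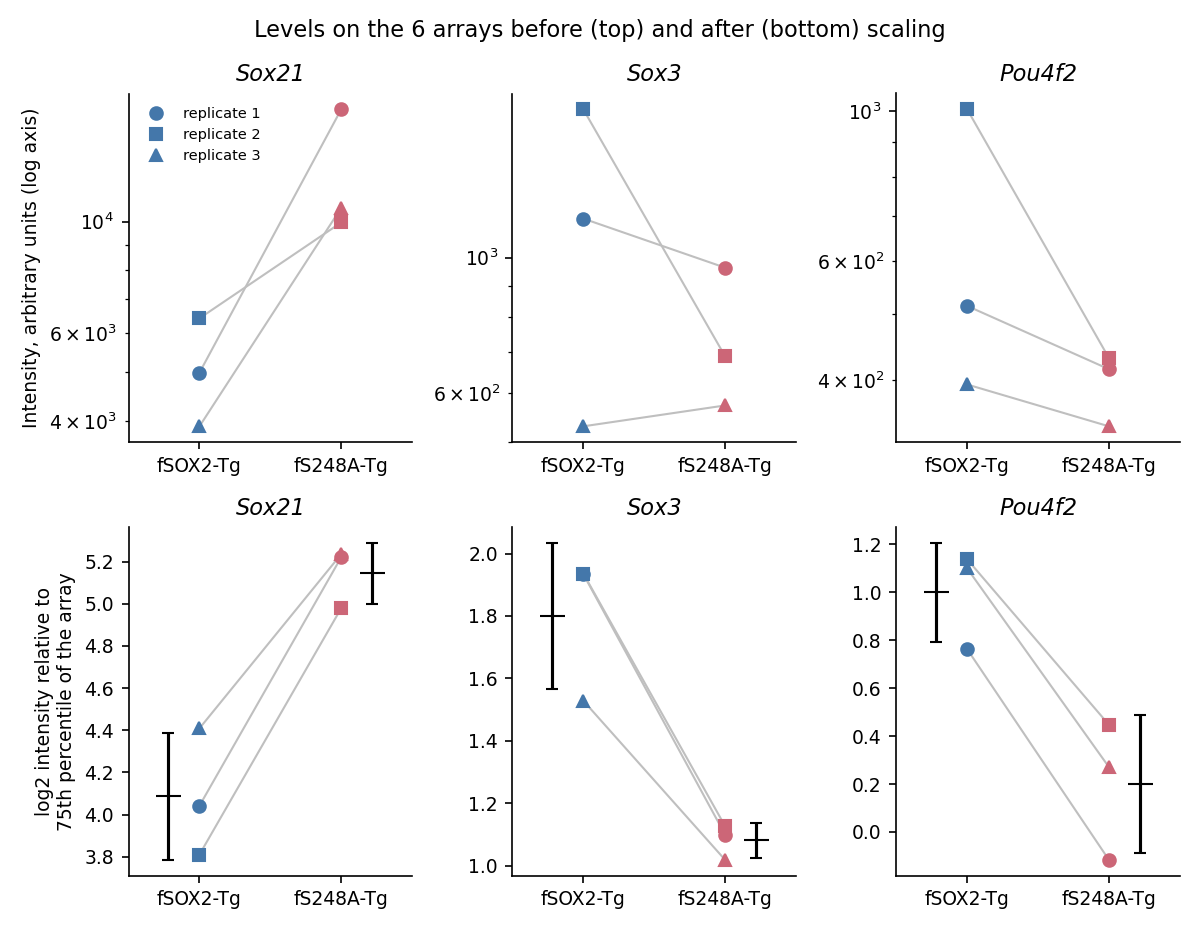
Level of Sox21, Sox3 and Pou4f2 on each of the 6 arrays, as scanner intensity on a log axis (top) and as the scaled log2 level, with each array's 75th percentile at 0 (bottom); grey lines join equal replicate numbers, and the black bars in the bottom panels are the mean and SD (n = 3). The lines are separate for all 3 genes after scaling, and before scaling only for Sox21.

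Before scaling, values also carry the brightness of each array. Scaling takes out a single factor per array, and whether brightness moved every probe alike was not tested. In unscaled intensity *Sox21* was between 3902 and 6414 in fSOX2-Tg cells and between 9967 and 16769 in fS248A-Tg cells, with no overlap. *Sox3* was between 530 and 1749 in fSOX2-Tg cells and between 573 and 963 in fS248A-Tg cells, so that the fS248A-Tg range lay inside the fSOX2-Tg range. *Pou4f2* was between 394 and 1006 in fSOX2-Tg cells and between 341 and 431 in fS248A-Tg cells, and the ranges overlapped. The scanner software gave each of these spots an error of 10.0% to 10.3% of its intensity. By the 75th percentile, fSOX2-Tg replicate 2 was the brightest array and fSOX2-Tg replicate 3 the dimmest.

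Other processing moved the sizes and left the directions. With quantile normalization the log2 difference was 1.14 for *Sox21*, -0.80 for *Sox3* and -0.85 for *Pou4f2*. With normexp background correction on the median spot signal, which changes both the correction and the signal read from each spot, it was 1.16, -0.63 and -0.68. The median difference over all probes tested was -0.096 with the 75th percentile and 0.013 with quantile normalization, a shift in the median. Relative to that median, *Sox21* differed by 1.15 and 1.12 under the 2 scalings, *Sox3* by -0.62 and -0.81, and *Pou4f2* by -0.70 and -0.87.

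The processed log2 values deposited by the authors are on another scale, and single arrays shift against each other on it. There *Sox21* was at 12.32, 12.27 and 12.55 in fSOX2-Tg replicates 1 to 3 and at 13.82, 13.28 and 13.45 in those of fS248A-Tg. *Sox3* was at 10.29, 10.34 and 9.84 against 9.45, 9.47 and 9.16, and *Pou4f2* at 9.12, 9.52 and 9.42 against 8.20, 8.79 and 8.51. The lines did not overlap for any of the 3 genes on this scale. The genes were picked by a paired test on these same values, so this separation lends them no support. The spread within a line differed, with an SD over the 3 fS248A-Tg arrays of 0.277 for *Sox21* and 0.173 for *Sox3*, and replicate 1 became the highest fS248A-Tg array for *Sox21*.

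**Figure D2:**
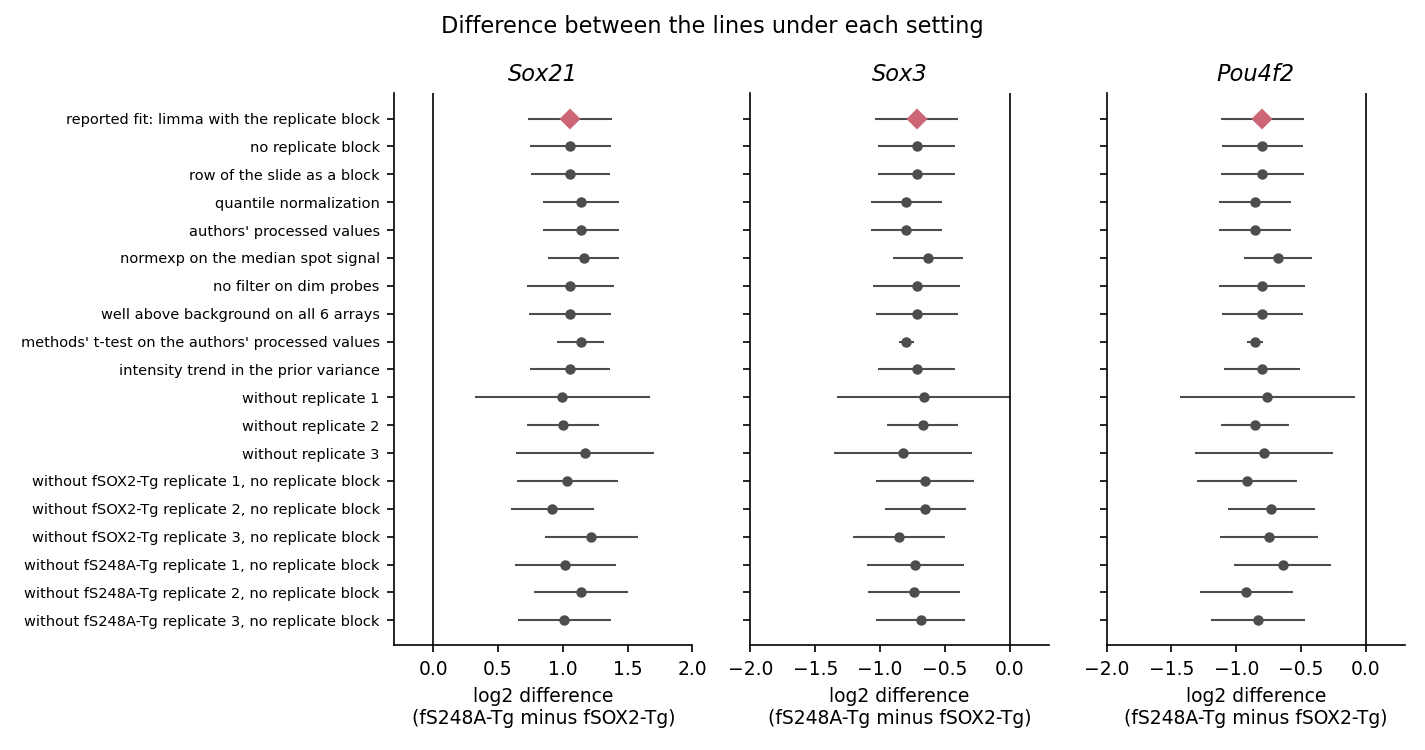
Log2 difference (fS248A-Tg minus fSOX2-Tg) of Sox21, Sox3 and Pou4f2 under each setting, with its standard error as a bar; the diamond is the value given in the text. Sox21 stays between 0.92 and 1.22, Sox3 between -0.85 and -0.63 and Pou4f2 between -0.92 and -0.64.

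The differences were set beside those of all 19779 probes that passed the filter on dim probes, as a description. Of these probes, 4.09% were as far above 0 as *Sox21* or farther, 10.5% as far below 0 as *Sox3* or farther, and 8.15% as far below 0 as *Pou4f2* or farther. All 3 genes had lines that did not overlap, *Sox21* upwards and the other two downwards. Over all probes measured on every array, 4.65% had the 3 fS248A-Tg arrays above the 3 fSOX2-Tg arrays and 7.97% had them below. With a 1.5-fold change or more at an unadjusted p below 0.05 as the call, limma placed 3.7% of the probes higher in fS248A-Tg cells and 5.59% lower. No probe passed Benjamini-Hochberg adjustment in limma, where 1837 had an unadjusted p under 0.05. On the processed values of the authors, the methods' t-test passed 1 probe. *Sox21* and *Pou4f2* met this call and *Sox3* did not, but the outcome for *Sox3* depended on the settings. Apart from those that left out replicates, *Sox3* met the call under 10 of 11 alternatives, among them no replicate block, the row of the slide as a block and quantile normalization. *Sox21* met it under 11 of 11 and *Pou4f2* under 10 of 11, the exception for both *Sox3* and *Pou4f2* being no filter on dim probes. Since the genes were picked from this contrast, these counts lend them no support.

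**Figure D3:**
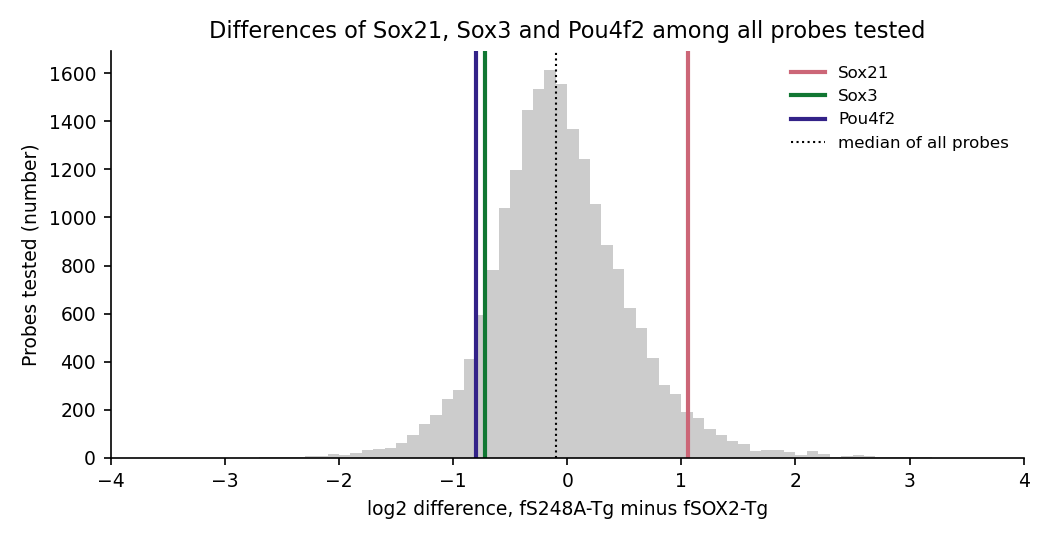
Number of probes (vertical axis) by log2 difference between fS248A-Tg and fSOX2-Tg mESCs (horizontal axis) for the 19779 probes tested, in grey, with the values of Sox21, Sox3 and Pou4f2 as vertical lines. Sox3 and Pou4f2, at -0.72 and -0.80, lie close together on the left shoulder, and Sox21 lies at 1.06 in the right tail.

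Other neural genes were read from a fixed list of 130, of which 25 had a named probe. All 25 names came from the study's list of changed genes, so their directions are those of a list picked on these arrays, and genes of the list that did not change cannot be seen here. Among the 24 SOX and POU factors listed, the 3 described above were the ones named. *Sox2* itself had no named probe, so the transgene could not be checked on the arrays. Apart from the 3 genes, 22 were named and 17 passed the filter on dim probes, with 2 called higher and 11 called lower in fS248A-Tg cells. The median log2 difference of the 17 was -0.88, beside -0.096 over all probes. The shares of all probes called, given above, are no measure for a list that was picked this way.

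Among the other neural transcription factors, 7 of 66 were named and 5 passed the filter, with 4 called lower and none higher. *Gbx1*, a homeobox gene of the spinal cord and forebrain, was lower by a log2 difference of -0.88 (standard error 0.33). *Prdm13*, which sets the choice between inhibitory and excitatory neurons in the spinal cord, differed by -0.96 (standard error 0.34). *Barhl2*, a homeobox gene of retinal neurons, differed by -1.22 (standard error 0.37), and *Lhx1*, a LIM homeobox gene, by -0.85 (standard error 0.33), although the *Lhx1* levels of the lines overlapped. *Rax*, which specifies the eye field, had a difference of -0.75 (standard error 0.33), with overlapping lines, and was not called. *Rbpj*, which encodes the DNA-binding partner of Notch, was too dim to be tested. Of the 7, *Rax* lay above the brightest negative control on all 6 arrays, *Gbx1* and *Prdm13* on 5, and the others on 3 or fewer. The sizes of the differences of *Barhl2* and *Lhx1* are therefore uncertain.

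Among the neuronal genes, 10 of 25 were named and 8 passed the filter, with 2 called higher and 4 lower. *Kcna1*, a potassium channel gene, differed by 0.76 (standard error 0.33), and *Gap43*, a growth cone gene, by 1.14 (standard error 0.33), although the *Gap43* levels of the lines overlapped. *Eno2*, the neuronal enolase, differed by -1.02 (standard error 0.34), and *Ntrk3*, a neurotrophin receptor gene, by -0.76 (standard error 0.32). The named genes of inhibitory signaling had opposite signs, and both were dim. *Slc32a1*, which encodes the transporter that loads GABA into vesicles, differed by -2.28 (standard error 0.36). It entered the test through fSOX2-Tg, was well above background on 2 of 3 fS248A-Tg arrays and lay above the brightest negative control on 2 of 6 arrays, so the size of this difference is uncertain. *Gad1*, which encodes a GABA-making enzyme, had a difference of 0.50 (standard error 0.33) and was not called. It entered the test through fS248A-Tg and was well above background on 1 of 3 fSOX2-Tg arrays. *Gad1* lay above the brightest negative control on 1 of 6 arrays and its lines overlapped, so its sign is uncertain. *Pclo*, of the presynaptic active zone, had a brighter probe at -0.68 (standard error 0.32) and a dim one at 0.44 (standard error 0.36), neither of them called, so its probes disagree in direction.

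Among the glial and progenitor genes, 5 of 15 were named and 4 passed the filter, with 3 called lower and none higher. *Bcan*, a brain proteoglycan, differed by -2.03 (standard error 0.38). *Fa2h*, which makes myelin lipids, differed by -1.23 (standard error 0.33) and *Gpm6b*, a membrane proteolipid, by -1.17 (standard error 0.35). *Mobp*, a myelin gene, had a difference of 0.73 (standard error 0.36) and was not called. It entered the test through fS248A-Tg and was well above background on 2 of 3 fSOX2-Tg arrays. None of the 5 lay above the brightest negative control on all 6 arrays, where 4 of the 22 genes of the 3 groups did, namely *Rax*, *Kcna1*, *Eno2* and *Pclo*. *Bcan* lay above the brightest negative control on 4 arrays, *Fa2h* and *Mobp* on 1 and *Gpm6b* on 0. The sizes of the differences of *Bcan*, *Fa2h*, *Mobp* and *Gpm6b* are therefore uncertain.

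**Figure D4:**
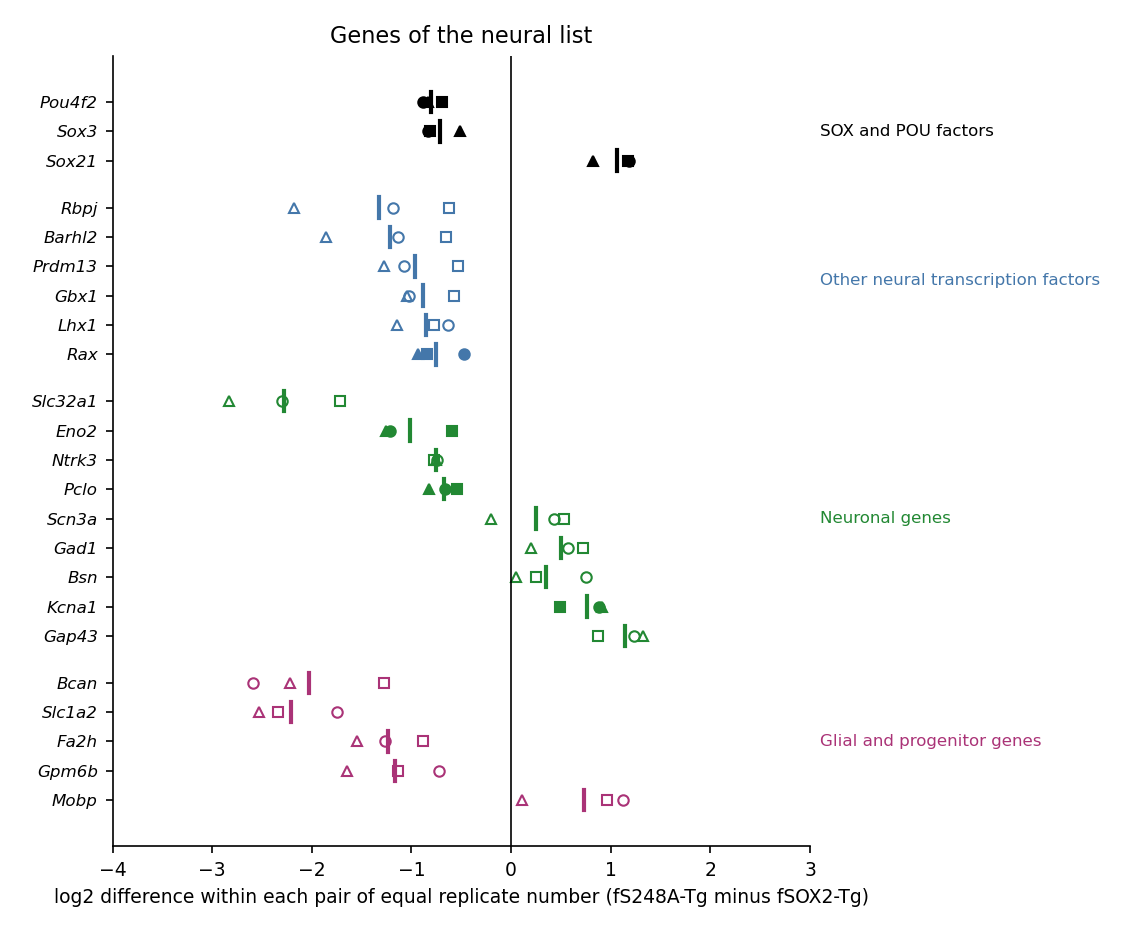
Log2 difference (fS248A-Tg minus fSOX2-Tg) of named neural genes within replicates 1 (circles), 2 (squares) and 3 (triangles), with the mean of the 3 pairs as a vertical bar; open symbols mark genes that were not above the brightest negative control on all 6 arrays. The 3 pairs of Sox21 lie between 0.83 and 1.18, and those of Sox3 and Pou4f2 between -0.88 and -0.51.

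Genes with a pattern like that of each factor were sought among 585 other named genes, by Pearson correlation of the levels over the 6 arrays. Nearly all of these genes were picked for a difference between the lines, so high values follow in part from that choice, and they are given as a description. For *Sox21* they were *Mrgpra2a* (r = 0.985), *Leng8* (0.975) and *Lpar6* (0.966). For *Sox3* they were *ORF63* (0.955), *Kcnip3* (0.954) and *Gm10324* (0.953). For *Pou4f2* they were *Gbx1* (0.987), *Nlrp1b* (0.981) and *Cst6* (0.980). *Gbx1* is also on the neural list and the other genes named here are not. Values this close over 6 arrays do not settle an order.

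The identity of the cells could be checked on the arrays only in part. By immunofluorescence, the study reports comparable OCT4 and NANOG protein in the lines. Of 12 markers of pluripotent cells, *Eras* had a named probe, and it was well above background on all 6 arrays at 7.79 ± 0.55 (SD, n = 3) in fSOX2-Tg and 6.94 ± 0.29 (SD, n = 3) in fS248A-Tg cells. None of 6 markers of neural cells had a named probe. Of 10 markers of primitive endoderm, *Gata4*, *Gata6*, *Dab2* and *Col4a1* were named, and all 4 were called higher in fS248A-Tg cells, by log2 differences of 1.32, 2.18, 1.61 and 1.86, where 3.7% of all probes were called higher. These names, and that of *Eras*, come from the study's list of changed genes, so a marker with a name was likely to differ, and the 4 of 4 is no independent count. *Dab2* was well above background on 1 of 3 fSOX2-Tg arrays and entered the test through fS248A-Tg. Their summed intensity was between 5.61 and 12.8 times the 75th percentile in fSOX2-Tg cells and between 20.0 and 53.2 times in fS248A-Tg cells. Fewer cells of a type and less RNA per cell cannot be told apart in such samples. The part of endoderm-like cells in the differences of *Sox21*, *Sox3* and *Pou4f2* was not tested.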

How the data were processed

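Total RNA from 3 replicates of each line was sent to the array provider. The provider removed ribosomal RNA, labeled the remainder with Cy3 by random priming and read the arrays with Feature Extraction 11.0.1.1. The authors deposited the scanner intensity of each spot, background subtracted but unscaled between arrays, and a table of processed log2 values whose normalization is not given in the sources used here. The file headers give 1 scan for all 6 arrays and a position for each, read here as row and column of 1 slide. On this reading, replicates 1 and 2 lie in row 1 and replicate 3 in row 2. The reading is not certain, and the row was used where a slide block had been planned.

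Groups and replicate numbers came from the sample titles, which do not say whether the replicates of a line are separate cultures. Spots marked as outliers (49 to 102 per array) were left out, spots of 1 probe were averaged, and the log2 of the 75th percentile was subtracted on each array. From the processed table, 19779 probes with every array of 1 line or both well above background were fitted with limma 3.58.1 in R 4.3.3, blocked by replicate number since the study used a paired test. Whether equal numbers share a batch is not stated by the labels. Probes with a 1.5-fold change or more and an unadjusted p below 0.05 were called. Standard errors come from limma, and precision is limited by having 3 arrays a line.

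Probes were named through RefSeq accessions (80 probes) and through the study's list of changed genes, used as a name key: a paired t-test on the processed values met the listed p and fold within 0.01% at exactly 1 probe for each of 664 entries. In all 741 probes, 3.09%, carry a name. For a gene with more than 1 probe the brightest was used.

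The 3 genes, the neural list, the markers and the tests were chosen with earlier results of these data known. The genes named are the 3, the named genes of the neural list (2 are counted but not reported here by name), the 3 named genes most like each by correlation, and the named markers. The columns of the authors' own comparison (fold change, p and direction) served as the name key alone. The fit was tested on simulated data with 200 of 19779 probes changed. The alternatives were no replicate block, the row as a block, quantile normalization, the processed values, normexp (offset 50) on the median signal, other filters on dim probes, paired and unpaired t-tests, an intensity trend in the prior variance, and leaving out replicates.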

Additional observations from a re-analysis of the deposited data

How the results depend on the processing

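*Sox21*, *Sox3* and *Pou4f2* kept their direction under the 18 alternatives compared, each moving by less than the SD within lines, pooled over both. Only normexp and quantile normalization were open to a reversal. The others keep the estimate (block, filter, prior variance), drop arrays from lines that do not overlap, or use the values the genes came from. *Pou4f2* moved by more than the SD of its pair differences, 0.098, with normexp, at -0.68, and without some single arrays. Without a replicate number the 3 differences ranged from 1.00 to 1.17, -0.82 to -0.66 and -0.85 to -0.76. Without single arrays (no replicate block) the ranges were 0.92 to 1.22, -0.85 to -0.65 and -0.92 to -0.64. *Sox3* met the call with no replicate block or with the row as a block. With replicates left out, *Sox21* met the call in 8 of 9 fits, *Pou4f2* in 4 and *Sox3* in 1.

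The counts moved more. Beside 732 probes called higher and 1105 lower, the fit with no replicate block called 831 and 1132. Around the line means, the 2 arrays of a number had correlations of 0.23 (replicate 1), -0.24 (replicate 2) and -0.0034 (replicate 3). The signs differed. The methods' t-test called 163 higher and 391 lower, and on the authors' processed values 320 and 344, with 1 probe past adjustment. The unpaired t-test called 312 and 607. With a replicate number left out the counts ranged from 368 to 2553 higher and from 422 to 3362 lower, with 0 to 53 probes past adjustment. Without single arrays the counts higher were 365, 1921 and 380 for fSOX2-Tg and 641, 1124 and 356 for fS248A-Tg replicates 1, 2 and 3, the counts lower 624, 1946, 748, 875, 1595 and 588 in that order, and up to 31 passed adjustment, without fS248A-Tg replicate 2. The highest counts came without replicate 2, or without fSOX2-Tg replicate 2, and the most probes past adjustment without replicate 3. In the fits without replicate 1 and without replicate 3, limma tested all probes with a common variance. Of the called probes 39.8% were higher, and 53.7% under quantile normalization.

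Of the neural list, 3 genes were called higher and 12 lower, *Sox21* and *Pou4f2* among them. Quantile normalization and limma on the processed values called 5 higher, and the methods' t-test on the processed values, from which the names come, called 8 higher and 17 lower. With a replicate number left out the counts ranged from 0 to 3 higher and from 3 to 13 lower, the lowest count lower without replicate 1 or 3 and the lowest count higher without replicate 1, and without single arrays from 1 to 3 and from 7 to 10. The cause was not tested.

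Signal over background limits the dim genes of the neural list, most of which lie near the negative controls.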
